A study of Homo sapiens with 18 samples.

Results

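The lysyl oxidase family comprises 5 human genes, LOX, LOXL1, LOXL2, LOXL3 and LOXL4, and all 5 were found by symbol among the 58381 rows of each deposited count table. Their transcripts were measured by RNA sequencing in TC-32, TC-71 and A673, which are established Ewing sarcoma lines. This bone and soft-tissue cancer is driven by a fusion of EWSR1 to FLI1. In each line, 3 libraries came from cells transfected with 20 nM of siFLI1, a small interfering RNA whose target sequence in FLI1 the fusion transcript shares, and 3 from cells transfected with 20 nM of the negative control siNeg. TC-32 and TC-71 cells were grown in RPMI medium and A673 cells in DMEM. For TC-32 and TC-71, the 12 column names give 48 h, and those of A673 give no time. The labels do not say whether the libraries of a group came from separate cultures. The p-values therefore measure the spread between libraries, which may be technical. A test within a line uses only the libraries of that line, and the tests between lines use all 18.

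Lysyl oxidases are secreted copper enzymes that oxidise lysine side chains of collagen and elastin to aldehydes, which then condense into the covalent cross-links that give connective tissue its strength. LOX and LOXL1 carry a propeptide that BMP1-type proteinases remove, whereas LOXL2, LOXL3 and LOXL4 carry scavenger receptor cysteine-rich domains in front of a similar catalytic domain. In tumours the family is best known for stiffening the matrix, and LOX has been described as a gene that the EWSR1::FLI1 fusion keeps low. The comparison therefore asked how each member, and the genes that make, modify and bind the enzymes' substrates, stood with the fusion depleted.

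The stretches upstream of the start sites are shown for LOX and LOXL4, which rose in every line, and for LOXL3, which did not, so that their bases can be set beside the values. They are RefSeq sequences (GRCh38.p14), read 5′ to 3′ on the strand of the gene, kept only where GENCODE release 44 places no exon, and the capitals mark GGAA or, for the other strand, TTCC, the core that ETS factors such as FLI1 read. The LOX stretch is chr5:122078414-122078509, the LOXL3 stretch chr2:74553962-74554159 and the LOXL4 stretch chr10:98268195-98268444, all on the minus strand.
LOX: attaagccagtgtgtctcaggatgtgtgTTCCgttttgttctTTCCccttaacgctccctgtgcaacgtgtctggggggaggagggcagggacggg
LOXL3: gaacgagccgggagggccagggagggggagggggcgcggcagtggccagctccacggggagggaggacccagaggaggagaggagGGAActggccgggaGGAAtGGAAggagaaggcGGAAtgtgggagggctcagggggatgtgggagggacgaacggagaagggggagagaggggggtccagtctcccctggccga
LOXL4: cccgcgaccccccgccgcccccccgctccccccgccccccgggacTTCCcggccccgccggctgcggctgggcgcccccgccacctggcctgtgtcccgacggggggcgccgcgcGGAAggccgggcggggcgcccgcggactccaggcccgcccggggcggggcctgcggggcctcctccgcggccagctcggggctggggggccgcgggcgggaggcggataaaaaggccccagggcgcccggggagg

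RefSeq promoter windows were matched for 4 of the 5 genes, all but LOXL2, and motifs were counted on both strands in the 250 bases before the most upstream start among a gene's RefSeq windows. Of these windows, the LOXL1 and LOXL3 ones lie wholly, and the LOX one partly, inside the gene as GENCODE places it, and the LOXL4 one lies outside. The core GGAA occurred 4 times at LOX, 3 at LOXL1, 5 at LOXL3 and 2 at LOXL4, and 92.7% of 34943 windows of that length held it, with a median of 3 matches. The tandem GGAAGGAA, the unit of the repeats that the fusion is known to occupy, was in none of the 4 windows and in 3.06% of all windows. ACGTG, the core of hypoxia response elements, occurred 4 times at LOX and 0 times at LOXL1, LOXL3 and LOXL4. It was present in 18.5% of all windows and at least 4 times in 0.667%, and this count at LOX was singled out after the matches were seen. The overlapping windows before the LOX starts at 122077223 and 122077174 held 1 ACGTG match each. The TEAD motif CATTCC, whose other strand GGAATG overlaps the ETS core, occurred 2 times at LOXL3 and 0 times at the others, against 11.9% of windows with a match. The AP-1 motif TGANTCA (6.59% of windows) and TATAAA (10.8%) had no match in these 4 windows. The LOXL4 window was 86.4% G and C, against a median of 58% over all windows and 55.2% at LOX. These matches describe letters and not occupied sites.

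LOX, LOXL1, LOXL2 and LOXL4 were higher with siFLI1 in all 3 lines, and LOXL3 went its own way in each. The largest log2 fold changes were those of LOXL4 in TC-32 (7.89) and LOX in A673 (6.69), and the smallest among the 4 that rose was that of LOXL1 in A673 (1.52). The siRNA effect on a gene was tested in each line with edgeR's quasi-likelihood test, and a gene was called at a Benjamini-Hochberg adjusted p under 0.05 over all genes tested. By that rule 4 members were higher and 0 lower in TC-32, where 41.3% of 16227 genes were called higher and 40.1% lower. TC-71 had 4 members higher and 1 lower, where 36.8% of 17085 genes were called higher and 35% lower. A673 had 5 members higher and 0 lower, where 35.6% of 18444 genes were called higher and 35.4% lower. The members' median log2 fold changes were 3.71 (TC-32), 5.03 (TC-71) and 4.54 (A673), beside 0.022, 0.018 and -0.0066 over all genes tested. Of the 14233 genes tested in every line, 18.9% were called higher in all 3, as were 4 of the 5 members. LOXL4 passed the filter on low counts through its siFLI1 libraries alone in TC-32 and TC-71, so it could enter these counts there only as a gene that differed. Since these are whole cultures, more cells that express a gene and more RNA per cell cannot be told apart.

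**Figure D1:**
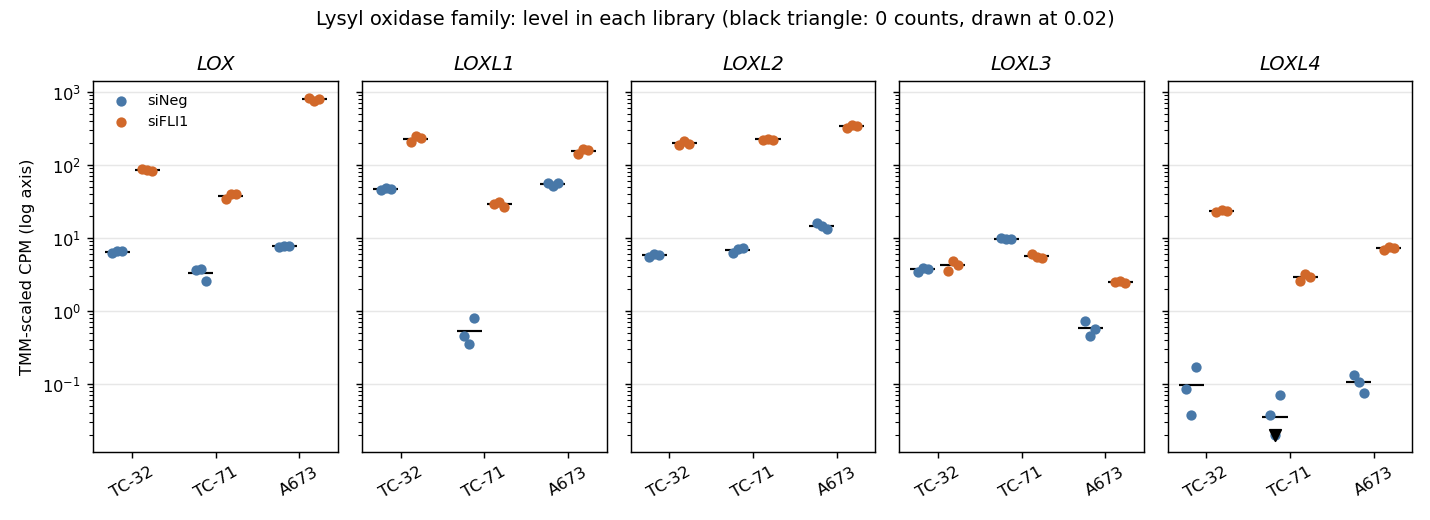
Level of each family gene in each library, in TMM-scaled CPM on a log axis, with siNeg in blue, siFLI1 in orange and the group mean as a black line. The siFLI1 points of LOX, LOXL1, LOXL2 and LOXL4 lie above the siNeg points in every line, the LOXL3 points overlap in TC-32, and 1 TC-71 siNeg library had 0 LOXL4 counts.

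LOX, the founding member and the classical cross-linker of fibrillar collagen, lies on chromosome 5 from 122063195 to 122078413, minus strand (ENSG00000113083.13; all gene positions are GRCh38, GENCODE 44). In TC-32 its level was 6.15, 6.71 and 6.57 CPM (counts scaled to the library total by TMM) in the siNeg libraries and 87, 86.1 and 82.4 in the siFLI1 libraries. TC-71 had 3.6, 3.7 and 2.53 CPM with siNeg and 34, 39.5 and 40.1 with siFLI1. A673 had 7.6, 7.88 and 7.74 CPM with siNeg and 834, 755 and 804 with siFLI1. The siRNAs did not overlap in any line, and A673, which began close to TC-32, ended far above it. The mean rose from 6.48 ± 0.287 to 85.2 ± 2.48 CPM in TC-32 (SD, n = 3), which gives 3.71 on the log2 scale (SE 0.0701, edgeR adjusted p = 9.15e-24). The log2 fold change in TC-71 was 3.55 (SE 0.108, edgeR adjusted p = 2.13e-21). A673 gave 6.69 (SE 0.0518, edgeR adjusted p = 1.67e-20), about 103-fold, the 83rd highest change of that line. Ordered by mean, the LOX level ran from A673 siFLI1 through TC-32 siFLI1 and TC-71 siFLI1 to A673, TC-32 and TC-71 siNeg, with no overlap between neighbouring groups. Such orders set levels from separately made tables side by side and were not tested.

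LOXL1, which acts on elastin and is tethered to elastic fibres by fibulin-5, lies on chromosome 15 from 73925989 to 73952137, plus strand (ENSG00000129038.15). Its siNeg level split the lines. TC-32 had 46.2, 47.9 and 47.4 CPM with siNeg and 210, 251.9 and 232.1 with siFLI1. A673 had 56.4, 52.1 and 55.9 CPM with siNeg and 142, 168 and 161 with siFLI1. TC-71 had only 0.446, 0.355 and 0.798 CPM with siNeg, from 12, 7 and 23 counts, and 29.2, 30.8 and 26.3 with siFLI1. The gene was therefore well expressed before depletion in a pair of lines and close to the detection floor in the other, and even the siFLI1 libraries of TC-71 stood below the siNeg libraries of TC-32 and A673. The log2 fold changes were 2.29 in TC-32 (SE 0.0585, edgeR adjusted p = 4.21e-20) and 1.52 in A673 (SE 0.0557, edgeR adjusted p = 4.46e-13). TC-71 gave 5.68 (SE 0.152, edgeR adjusted p = 1.35e-23). There 2 of the 3 siNeg libraries lay above the filter's minimum. From summed counts alone, the TC-71 ratio had a 95% exact interval of 37.4 to 70.5, wider than that SE implies. The order of LOXL1 means was TC-32 siFLI1, A673 siFLI1, A673 siNeg, TC-32 siNeg, TC-71 siFLI1 and TC-71 siNeg, and no neighbours overlapped.

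LOXL2, an enzyme known to cross-link type IV collagen of basement membranes, was the member with the most even response. Its locus is on chromosome 8 from 23296897 to 23425328, minus strand (ENSG00000134013.15). In TC-32 the libraries read 5.4, 5.99 and 5.93 CPM with siNeg and 187, 212 and 194 with siFLI1. TC-71 had 6.28, 7.1 and 7.22 CPM with siNeg and 222.6, 227.5 and 222.8 with siFLI1. A673 had 15.8, 14.7 and 13.2 CPM with siNeg and 319, 359 and 340 with siFLI1. Every siFLI1 library lay above every siNeg library of any line. The log2 fold change was 5.09 in TC-32 (SE 0.0717, edgeR adjusted p = 5.08e-26) and 5.03 in TC-71 (SE 0.0626, edgeR adjusted p = 1.04e-31). A673 gave 4.54 (SE 0.0627, edgeR adjusted p = 2.73e-18). By mean level the order was A673, TC-71 and TC-32 with siFLI1, then A673, TC-71 and TC-32 with siNeg, with no overlap between neighbours.

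LOXL3, a member required for palate and cartilage development, lies on chromosome 2 from 74532258 to 74555690, minus strand (ENSG00000115318.11), and its response differed in kind between the lines. TC-32 had 3.43, 3.92 and 3.79 CPM with siNeg and 3.53, 4.84 and 4.23 with siFLI1, and these ranges overlapped. TC-71 had 9.91, 9.58 and 9.82 CPM with siNeg and 6.1, 5.55 and 5.23 with siFLI1, so every siFLI1 library was lower. A673 had 0.723, 0.459 and 0.573 CPM with siNeg and 2.46, 2.59 and 2.42 with siFLI1, so every siFLI1 library was higher. LOXL3 was the weakest-expressed member of the A673 siFLI1 libraries and, with siNeg, was highest in TC-71. In TC-71 it fell by 0.81 on the log2 scale (SE 0.106, edgeR adjusted p = 8.04e-08) and in A673 it rose by 2.09 (SE 0.145, edgeR adjusted p = 1.67e-09). In TC-32 the log2 fold change was 0.18 (SE 0.151, edgeR adjusted p = 0.262), which did not pass the test. The order of means was TC-71 siNeg, TC-71 siFLI1, TC-32 siFLI1, TC-32 siNeg, A673 siFLI1 and A673 siNeg, and the ranges of the TC-32 groups alone overlapped.

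LOXL4, a further member with scavenger receptor domains, lies on chromosome 10 from 98247690 to 98268194, minus strand (ENSG00000138131.3), and was almost undetected with siNeg. The TC-32 siNeg libraries held 2, 1 and 4 counts and the siFLI1 libraries 600, 805 and 701. In TC-71 there were 1, 0 and 2 counts with siNeg and 63, 84 and 110 with siFLI1. A673, sequenced more deeply, had 16, 13 and 9 counts with siNeg and 787, 887 and 837 with siFLI1. On the CPM scale the siFLI1 means were 23.5 ± 0.484 for TC-32, 2.92 ± 0.32 for TC-71 and 7.23 ± 0.443 for A673 (SD, n = 3), and the siNeg means of all lines were at or below 0.105. The ratio of summed counts, per total count, was 257 in TC-32 (95% exact interval 125 to 641, from 7 siNeg counts). It was 73.1 in TC-71 (24.7 to 357, from 3 siNeg counts) and 63.9 in A673 (46.4 to 90.5, from 38 siNeg counts). Only counting error enters these intervals, and the reads are not molecules counted by identifiers. The fitted log2 fold changes were 7.89 (SE 0.194), 6.05 (SE 0.422) and 6.09 (SE 0.146), with edgeR adjusted p-values of 1.29e-21, 7.52e-14 and 1.75e-15. These fold changes depend on the prior count where siNeg counts are this low. Their SEs, derived from the F-test, are smaller than the counting error in the exact intervals, so they overstate the precision. LOXL4 means were ordered TC-32, A673 and TC-71 with siFLI1 without overlap, whereas with siNeg the TC-32 range overlapped those of A673 and TC-71, and A673 (0.0759 to 0.133 CPM) lay above TC-71 (0 to 0.0694 CPM).

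**Figure D2:**
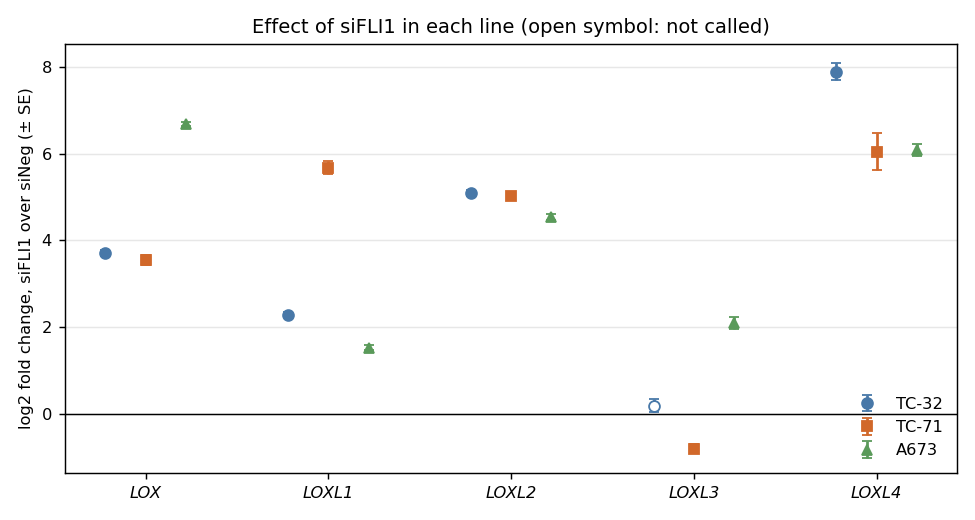
Log2 fold change of siFLI1 over siNeg for each family gene in TC-32 (circles), TC-71 (squares) and A673 (triangles), with bars for the standard error and an open symbol where the gene was not called. The bars, derived from the F-test, understate the uncertainty for LOXL4 in every line and for LOXL1 in TC-71, where siNeg counts were low. LOXL2 lies between 4.54 and 5.09 in the 3 lines, LOX stands out in A673 at 6.69, LOXL1 in TC-71 at 5.68, and LOXL3 runs from -0.81 to 2.09.

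The plot of fold changes by line raised the question whether a member's response differed between lines, which was tested by interaction contrasts in 1 edgeR model of all 18 libraries. Over 19610 genes, the effects differed for 62.1% between TC-32 and A673, for 53.6% between TC-32 and TC-71 and for 51.6% between A673 and TC-71. LOX rose more in A673 than in TC-32, with a difference of -2.95 in TC-32 minus A673 (SE 0.11, adjusted p = 6.56e-22), and more than in TC-71, by 3.10 (SE 0.142, adjusted p = 4.29e-19). Between TC-32 and TC-71 the LOX effects differed by 0.15 (SE 0.139, adjusted p = 0.389), which did not pass the test.

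LOXL1 rose most in TC-71, where it had started lowest. Its effect in TC-71 exceeded that in TC-32 by a difference of -3.39 (TC-32 minus TC-71, SE 0.217, adjusted p = 1.16e-13) and that in A673 by -4.19 (A673 minus TC-71, SE 0.201, adjusted p = 2.29e-16). TC-32 minus A673 gave 0.80 (SE 0.0917, adjusted p = 1.23e-08). For LOXL2 the differences were 0.58 for TC-32 minus A673 (SE 0.101, adjusted p = 6.98e-06) and -0.52 for A673 minus TC-71 (SE 0.0974, adjusted p = 2.7e-05). At 0.057 (SE 0.121, adjusted p = 0.747), the LOXL2 difference between TC-32 and TC-71 did not pass. All 3 pairs of lines differed for LOXL3, by -1.88 (TC-32 minus A673, adjusted p = 3.38e-10), 0.98 (TC-32 minus TC-71, adjusted p = 2.9e-05) and 2.86 (A673 minus TC-71, adjusted p = 2.2e-15). LOXL4 differed between TC-32 and A673, by 1.88 (SE 0.51, adjusted p = 0.00165). That LOXL4 difference rests on siNeg counts of 1 to 4 per TC-32 library and 9 to 16 per A673 library. With each library left out it ranged from 1.48 to 2.53. Its differences of 1.81 for TC-32 minus TC-71 (SE 1.05, adjusted p = 0.174) and -0.068 for A673 minus TC-71 (SE 0.825, adjusted p = 0.948) did not pass. The former rests on siNeg counts of 0 to 4 per library and the latter on 0 to 16. With limma-voom the TC-32 minus TC-71 difference was called (2.00, adjusted p = 0.0135). In edgeR it ranged from 0.99 (without TC-71 siNeg replicate 3, adjusted p = 0.73) to 2.45 (without TC-32 siNeg replicate 3, adjusted p = 0.0952). The TC-71 table comes from another counting program than the others by its name, so for contrasts with TC-71 the line and the program cannot be told apart. In contrasts with A673 the line cannot be told apart from its medium and depth, and its time is not given. The FLI1 effect differed too, by 1.08 for TC-32 minus A673 (edgeR adjusted p = 4.11e-14). It differed by 0.43 for TC-32 minus TC-71 (adjusted p = 6.67e-05) and -0.65 for A673 minus TC-71 (adjusted p = 1.52e-08). The part of these in the members' differences was not tested.

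Divided by the length of their exons, the members' levels show which enzyme made up most of the family's transcripts. Summed over the 5 genes, the level per kb of exon rose from 15.9 ± 0.406 to 119 ± 8.11 CPM per kb in TC-32, 7.49-fold (SD, n = 3). TC-71 rose from 4.05 ± 0.0281 to 54.2 ± 1.25 CPM per kb, 13.4-fold. A673 rose from 19 ± 0.68 CPM per kb (SD, n = 3) to between 243.8 and 247.2, 12.9-fold. No overlap between siRNAs was seen in these sums, which weigh the most abundant members most and were not tested.

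The leading member changed with the line and the siRNA. LOXL1 made up 81.4% ± 0.554 of the summed level in TC-32 siNeg and 79.1% ± 1.16 in A673 siNeg (SD, n = 3), but 3.61% ± 1.57 in TC-71 siNeg. There LOXL3 led with 53.4% ± 1.22, ahead of LOXL2 with 28.3% ± 1.92 and LOX with 14.5% ± 2.9. With siFLI1, LOXL1 still led in TC-32 at 53.2% ± 1.35, followed by LOXL2 at 27.7% ± 0.291, LOX at 12.8% ± 0.998 and LOXL4 at 5.5% ± 0.268. LOXL2 led in TC-71 siFLI1 at 69.1% ± 0.746, and LOXL3 had gone to 2.3% ± 0.201. LOX led in A673 siFLI1 at 58.2% ± 2.89, ahead of LOXL2 at 23.2% ± 1.37 and LOXL1 at 17.6% ± 1.49. In every line the LOXL2 share was higher and the LOXL3 share lower in each siFLI1 library than in each siNeg library. A share depends on the levels of all members, and a lower share need not be a lower level. The LOXL3 level itself rose in A673, from 0.585 to 2.49 CPM, and was not called in TC-32. With the longest transcript as the length of each gene, LOX held 51.1% in A673 siFLI1 and LOXL3 49.6% in TC-71 siNeg, and the leading member was the same in each of the 6 groups.

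**Figure D3:**
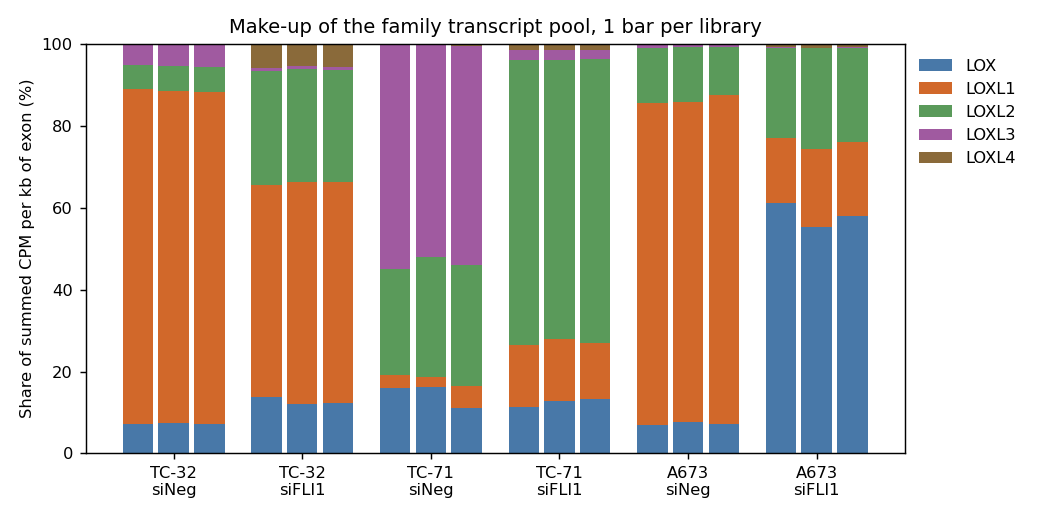
Share of each gene in the summed family level per kb of exon, in percent, with 1 bar for each of the 18 libraries. LOXL1 fills most of the TC-32 and A673 siNeg bars and LOXL3 most of the TC-71 siNeg bars, while LOXL1, LOXL2 and LOX are the largest siFLI1 shares of TC-32, TC-71 and A673 respectively.

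**Figure D4:**
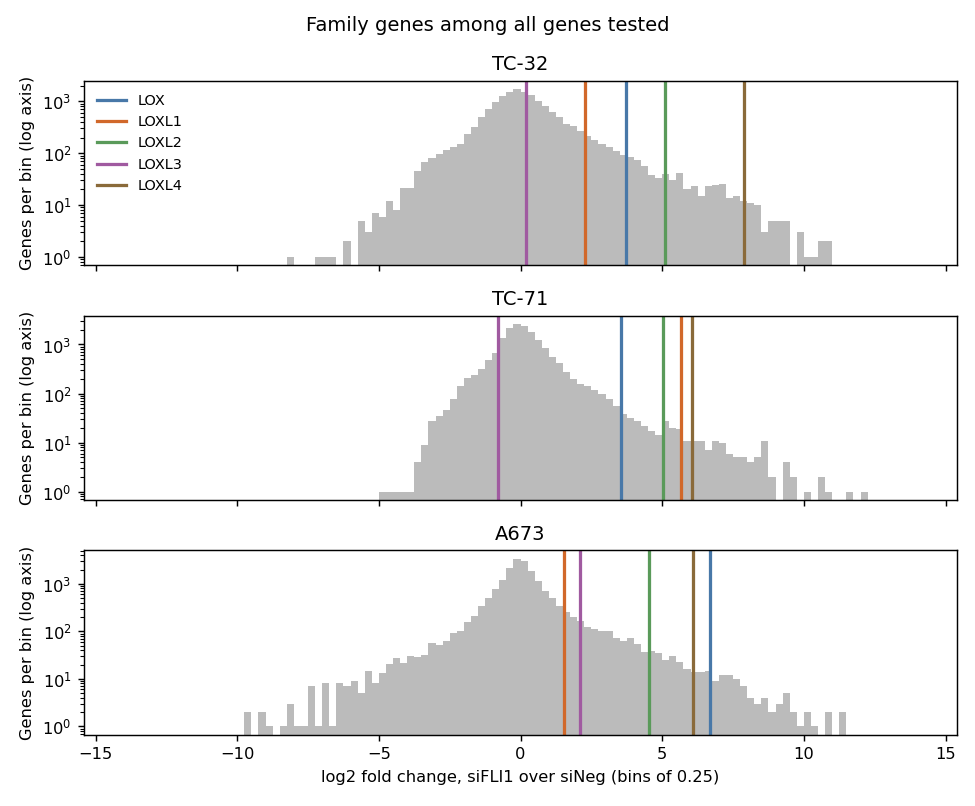
Number of genes tested per bin of log2 fold change (bins of 0.25, log axis) in each line, with a coloured line at each family gene. The 4 genes that rose in every line lie to the right of the bulk, from 1.52 (LOXL1, A673) to 7.89 (LOXL4, TC-32), and LOXL3 lies inside it in TC-32 and TC-71.

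Among all genes tested, LOXL4 had the 52nd highest log2 fold change in TC-32, the 99th in TC-71 and the 118th in A673. LOXL2 ranked 309th, 174th and 290th, and LOX 626th, 320th and 83rd. LOXL1 ranked 1457th, 120th and 1629th. LOXL3 ranked 7122nd, 14973rd and 1134th. Members whose siFLI1 and siNeg libraries did not overlap numbered 4 in TC-32 and 5 in each of the other lines. Of all genes tested, the shares without overlap were 82.6% (TC-32), 73.8% (TC-71) and 73.6% (A673).

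Parts of the members' exons are shared with other genes, and the strand setting of the authors' counting is not given in the sources used here, so reads there cannot be told apart by strand. LOXL3 shared most, 20.7% of its exon bases with HTRA2, a mitochondrial protease gene on the opposite strand, and 4.78% with DOK1, a docking protein gene also on the opposite strand. HTRA2 stood well above LOXL3, at 28.2 ± 0.942 CPM in TC-32 siNeg and 89.3 ± 1.68 in TC-71 siNeg (SD, n = 3), and its log2 fold changes were -1.06 (TC-32), -0.57 (TC-71) and -0.12 (A673). The HTRA2 call in A673 (edgeR adjusted p = 0.0415) was lost with DESeq2 (adjusted p = 0.0671), and without any single library other than siFLI1 replicate 2 (edgeR adjusted p from 0.0679 to 0.154). DOK1 had -0.39 and -0.83 in TC-32 and TC-71, and 0.029 in A673, where it was not called. Both neighbours were called lower in TC-32, where LOXL3 was not called (0.18), and in TC-71, where LOXL3 fell. Their part in the LOXL3 values was not tested.

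LOXL1 shared 9.21% of its exon bases with the antisense LOXL1-AS1, whose log2 fold changes were -0.25 in TC-32 (called), 2.38 in TC-71 and 0.82 in A673. The TC-32 call was lost with DESeq2 (adjusted p = 0.0514), and in edgeR without siFLI1 replicate 2 (adjusted p = 0.0785) or siNeg replicate 2 (adjusted p = 0.0757). LOXL1-AS1 stood at 1.08 ± 0.392 CPM in TC-71 siNeg against 0.533 ± 0.234 for LOXL1, and at 5.79 ± 0.288 in TC-71 siFLI1 against 28.8 ± 2.28 (SD, n = 3). The LOX exons shared 2.47% with SRFBP1 on the opposite strand, which had -1.30 in TC-32, -0.26 in TC-71 (edgeR adjusted p = 0.0527, not called) and 0.32 in A673. Without siFLI1 replicate 2 the TC-71 value was called (-0.35, edgeR adjusted p = 0.0238), as it was with RLE factors (-0.27, edgeR adjusted p = 0.044). LOXL2 shared 2.01% with ENTPD4 on its own strand (0.30 in TC-32, 0.92 in TC-71, 0.30 in A673) and 2.97% with the antisense LOXL2-AS1 (1.74, 0.74 and 1.16). In TC-32, LOXL2-AS1 had 3, 7 and 6 siNeg counts and 0 siNeg libraries above the filter's minimum. LOXL2-AS1 lost its TC-71 call with DESeq2 (adjusted p = 0.0536), and in edgeR without siNeg replicate 1 (0.51, adjusted p = 0.116) or siFLI1 replicate 3 (0.68, adjusted p = 0.0604) of that line. LOXL4 shared 4.23% with RP11-34A14.3, which was too low to be tested in any line and had at most 9 counts in a library.

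The other genes of the cross-linking pathway were counted in lists. Their counts stand beside the shares of all genes tested, of which 41.3% (TC-32), 36.8% (TC-71) and 35.6% (A673) were called higher and 40.1%, 35% and 35.4% lower. Of 14 substrate genes, the fibrillar and type IV collagens and elastin, 14 rose in TC-32. In TC-71, 9 of 12 tested rose, 2 fell and 1 was not called. A673 had 13 higher and 1 lower. COL1A2, COL2A1 and COL24A1 in TC-32, and COL1A2 and COL11A1 in TC-71, had 0 siNeg libraries above the filter's minimum (0.382 and 0.375 CPM), so these 3 and 2 genes could enter only as genes that rose. The largest rises were those of COL1A2 (6.13) and COL1A1 (5.44), the chains of type I collagen, in TC-32. They were COL11A1 (7.17) and COL1A2 (5.60) in TC-71, and COL11A1 (6.82) and COL1A1 (5.62) in A673, on the log2 scale. COL1A2 and COL11A1 began at 0.0648 and 0.0755 CPM in TC-71, about the level of single counts. ELN, which encodes elastin, the substrate of LOXL1, rose by 1.36 in TC-32 but fell by 0.53 in TC-71 and by 0.33 in A673. COL27A1, a cartilage collagen, fell by 0.33 in TC-71, where without siFLI1 replicate 1 it was not called (-0.21, edgeR adjusted p = 0.127), leaving 1 gene lower. COL4A1 and COL4A2, the type IV chains that LOXL2 is known to act on, were too low to be tested in TC-71, and rose in TC-32 (2.95 and 2.10) and A673 (2.24 and 1.34). The list medians were 3.13 (TC-32), 3.86 (TC-71) and 1.90 (A673), beside the all-gene medians given above.

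Matrix proteins that bind the enzymes or place them on fibres rose in 7 of 7 cases in TC-32, in 5 of 6 tested in TC-71 and in 6 of 7 in A673, and 0 fell, against 41.3%, 36.8% and 35.6% of all genes called higher. THBS1, which encodes thrombospondin 1, had log2 rises of 6.02 (TC-32), 7.57 (TC-71) and 5.51 (A673). In TC-71 its siNeg libraries stood at only 0.446, 0.101 and 0.208 CPM, so the value there rests on few counts. POSTN, encoding periostin, a scaffold that brings BMP1 to LOX, rose by 4.79 in TC-32 and 5.31 in A673 and was too low to be tested in TC-71. The TC-32 siNeg libraries had 0, 0.415 and 0.21 CPM of POSTN. FN1, encoding fibronectin, rose by 8.07 in TC-71, from 29.2 ± 2.42 to 7901 ± 304 CPM (SD, n = 3). Its rises were 1.49 in TC-32 and 0.96 in A673, where siNeg stood at 11559 ± 399 and 7320 ± 37.3 CPM. The medians of this list were 2.75, 3.55 and 0.96.

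The proteinases that remove the LOX and procollagen propeptides, with their enhancers, rose in 6 of 6 tested in TC-32, in 6 of 7 in TC-71 with 1 lower, and in 6 of 7 in A673 with 1 not called. The all-gene shares called higher were 41.3%, 36.8% and 35.6%, and in TC-32 2 of the genes, TLL2 and ADAMTS14, had 0 siNeg libraries above the filter's minimum and could enter only as genes that rose. BMP1, the main proteinase for the LOX propeptide, rose from 13 ± 0.745 to 88.6 ± 3.09 CPM in TC-71 (log2 fold change 2.77) and from 15.4 ± 0.0355 to 97 ± 7.13 in A673 (2.65; SD, n = 3). Its rise in TC-32 was 2.48. ADAMTS14, a procollagen N-proteinase, rose by 8.04 in TC-32 and 2.12 in A673. TLL2, a relative of BMP1, rose by 6.54 in TC-32 from 0.0406 CPM, and PCOLCE2, a procollagen proteinase enhancer, by 2.71 in TC-71. TLL1, of the same proteinase group, fell by 0.82 in TC-71 (edgeR adjusted p = 8.54e-06) and rose by 2.06 in TC-32 (adjusted p = 8.4e-13) and by 0.40 in A673 (adjusted p = 1.87e-06). The medians were 2.59, 1.84 and 0.65.

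Enzymes and chaperones of collagen lysine and proline modification numbered 17, of which TC-32 had 17 higher, TC-71 had 14 and A673 had 17, against 41.3%, 36.8% and 35.6% of all genes. The median log2 fold changes were 0.62, 0.64 and 0.67. P3H2 (3.57) and P4HA2 (3.47), prolyl hydroxylases, led in TC-32. P4HA3 (2.78), another prolyl hydroxylase subunit, and PLOD2 (2.15), the lysyl hydroxylase of collagen telopeptides, led in TC-71, and P4HA3 (3.19) and P4HA2 (2.86) in A673. P3H3 (-0.28) and COLGALT1 (-0.19), a collagen galactosyltransferase, fell in TC-71, where 1 further gene was not called.

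The 5 copper genes were called in both directions in each line. Of all genes tested, 41.3% (TC-32), 36.8% (TC-71) and 35.6% (A673) were called higher and 40.1%, 35% and 35.4% lower. In TC-32 1 was higher, 3 were lower and 1 was not called. TC-71 had 1 higher, 2 lower and 2 not called, and A673 had 2 higher, 1 lower and 2 not called. ATP7A, the pump that loads copper into lysyl oxidases in the secretory pathway, had a log2 value that fell by 0.67 (TC-32), 0.43 (TC-71) and 0.40 (A673). It went from 27.5 ± 1.06 to 17.3 ± 1.09 CPM in TC-32 (SD, n = 3). ATP7B, its relative, fell by 0.68 in TC-32, and SLC31A1, the high-affinity copper importer, by 0.43 in TC-32 and 0.42 in TC-71, and it had 0.033 in A673, where it was not called. SLC31A2, a related transporter, rose by 2.03 in TC-32 and by 0.44 in A673. ATOX1, the copper chaperone that serves ATP7A, rose by 0.31 in TC-71 and 0.60 in A673. The medians were -0.43, -0.26 and 0.14.

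**Figure D5:**
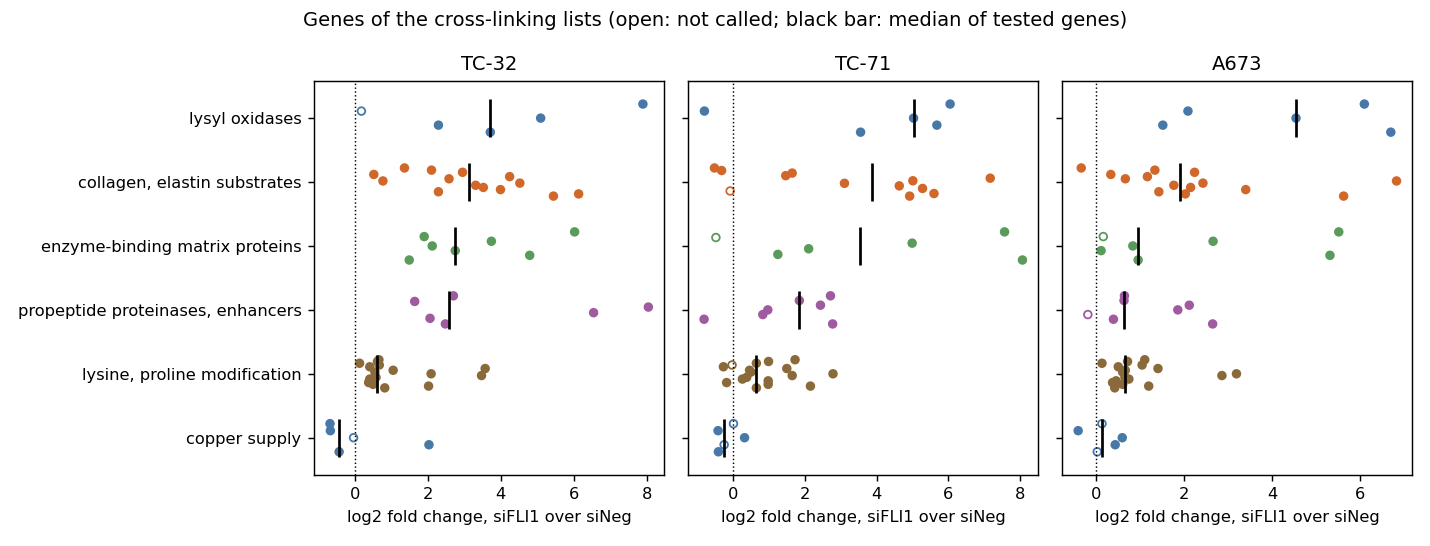
Log2 fold change of siFLI1 over siNeg for each tested gene of the family and of 5 lists of the cross-linking pathway, with 1 panel a line, open symbols for genes not called and a black bar at the median. The family medians of 3.71, 5.03 and 4.54 lie right of the medians of the modification genes (0.62, 0.64 and 0.67) and of the copper genes (-0.43, -0.26 and 0.14).

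Counted over the lines, 9 of the 14 substrate genes, 5 of the 7 binding proteins, 4 of the 7 proteinase genes and 14 of the 17 modification genes were called higher in all 3, and 0 of the 5 copper genes. The share over all genes tested in every line was 18.9%, and ATP7A was the 1 gene of these lists called lower in all 3, as 19% of all genes were.

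Likeness between members was measured by Pearson's r of log2 CPM over the 18 libraries, each line centred on its mean. These values describe points that share lines, siRNAs and libraries, and with 2 siRNAs per line r rests mainly on how the fold changes of a gene are spread over the lines. By r, LOXL2 and LOXL4 were most alike (0.983), followed by LOX with LOXL2 (0.937) and with LOXL4 (0.936), and LOXL1 and LOXL3 were least alike (-0.059). By Spearman's rank correlation LOXL1 and LOXL2 were most alike (0.934), followed by LOXL2 with LOXL4 (0.808) and LOX with LOXL4 (0.765), and LOX with LOXL2 had 0.571. Many other genes were nearer by r than the members were to each other: 179 to LOXL2 than LOXL4 was, 110 to LOXL4 than LOXL2 was, and 464 to LOX than LOXL2 was. Of 11066 genes compared, the nearest to LOX were ITGA3 (0.999), an integrin subunit, UGCG (0.998), the glucosylceramide synthase, and RAI14 (0.996). ITGA3 had log2 fold changes of 2.93, 2.77 and 5.58 in TC-32, TC-71 and A673, the same shape as LOX.

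The genes nearest to LOXL1 were ECM1 (0.996), a secreted matrix protein, AMOTL2 (0.994), an angiomotin, and NUPR1 (0.994), a stress-response protein with log2 fold changes of 2.51, 6.05 and 2.14. MTCL1 (0.999), a microtubule cross-linker, ADAM19 (0.998), a membrane metalloproteinase, and LAMC1 (0.998), a laminin chain, were nearest to LOXL2. ADAM19 changed by 3.32, 3.22 and 3.22. LOXL3 was nearest to QDPR (0.975), a pteridine reductase, SLC2A1 (0.963), a glucose transporter, and KRT17 (0.956), a keratin. KRT17 had 0.31, -0.55 and 1.19, with the sign pattern of LOXL3. For LOXL4 the list was CREB3 (0.998), BHLHE40 (0.997), both transcription factors, and COPA (0.996), a coat protein of secretory vesicles. With Spearman's rank correlation in place of Pearson's r, RAI14 alone of these 15 genes was again among the 3 nearest to its member.

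The target and the identity of the cells were checked in the same libraries. FLI1 itself, counted from fused and unfused transcripts alike, fell by 1.03 (TC-32), 1.47 (TC-71) and 2.09 (A673) on the log2 scale, and EWSR1 by 0.39, 0.16 and 0.37. In A673, where FLI1 fell most, it went from 76.2 ± 0.733 to 18 ± 0.35 CPM (SD, n = 3). Total counts were 24102487 to 33669271 per library in TC-32, 19685354 to 37234528 in TC-71 and 114564479 to 120993595 in A673, and no library stood apart. The 6 Ewing sarcoma markers summed to 758 to 773 CPM in TC-32 siNeg and 302 to 307 in siFLI1, to 855 to 874 and 258 to 270 in TC-71, and to 798 to 822 and 377 to 386 in A673. CD99, the surface marker of the disease, stood at 165 ± 2.71 CPM in TC-32 siNeg and 365 ± 11.3 in A673 siNeg (SD, n = 3). It was at 0 counts in all TC-71 libraries, whose table comes from another counting program. Whether that 0 reflects the cells or the counting was not tested, so that marker does not speak to the label of the line there.

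Markers of other cell types moved with the siRNA too. The 6 fibroblast markers summed to 126 to 130 CPM in TC-32 siNeg and 489 to 523 in siFLI1, to 72.1 to 75.8 and 291 to 304 in TC-71, and to 179 to 186 and 250 to 292 in A673. Of these, COL6A3 went from 1.54 ± 0.269 to 73.4 ± 6.48 CPM in A673, while DCN stood at 0.934 ± 0.0507 and 1 ± 0.112 (SD, n = 3), and none of the 6 was at 0 in all libraries of a group. THY1 was lower with siFLI1 in A673 (61.1 ± 2.04 to 38.4 ± 2.56 CPM) and TC-71 (26.9 ± 1.53 to 22.3 ± 0.862), and higher in TC-32 (48.3 ± 1.76 to 64.3 ± 5.02). The 5 epithelial markers summed to 88.8 to 103 and 124 to 141 CPM in TC-32, to 159 and 408 to 422 in TC-71 (KRT19 at 0 with siNeg), and to 294 to 316 and 371 to 416 in A673. Most of that was KRT18, and EPCAM was at most 1.06 CPM in any library. KRT8 went from 2.23 ± 0.464 to 8.86 ± 0.801 CPM in TC-32 (SD, n = 3). In TC-71 it went from 23.1 ± 0.919 to 53.2 ± 1.03, and in A673 from 14.4 ± 0.788 to 27.4 ± 1.39. CDH1 went from 0.162 ± 0.0427 to 4.44 ± 0.694 CPM in TC-32 and was at most 0.459 in any TC-71 or A673 library. The 4 endothelial markers summed to 2.86 to 3.31 CPM with siNeg and 3.08 to 4.56 with siFLI1 in TC-32, to 0 to 0.111 and 0.458 to 0.841 in TC-71 (PECAM1 and VWF at 0 with siNeg), and to 0.754 to 1.07 and 2.55 to 2.67 in A673. CDH5 went from 0.281 ± 0.135 to 1.39 ± 0.118 CPM in TC-32 and from 0.378 ± 0.08 to 1.58 ± 0.153 in A673 (SD, n = 3), TEK from 0.628 ± 0.191 to 2.08 ± 0.421 and from 0.0442 ± 0.0252 to 0.687 ± 0.0892, and PECAM1 from 2.1 ± 0.311 to 0.433 ± 0.224 and from 0.483 ± 0.0696 to 0.224 ± 0.072. Of the blood cell markers reported here, CD68 went from 1.9 ± 0.701 to 7.96 ± 0.983 CPM in TC-32 and from 6.83 ± 0.873 to 12.2 ± 0.652 in A673, and was at most 0.152 in a TC-71 library. PTPRC was at most 0.153 CPM and CD14 at most 0.729 in any library, and CD3E was at 0 in 5 of the 6 groups. The part of these markers in the family's values was not tested.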

How the data were processed

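The libraries were made from messenger RNA with a kit that keeps strand, as the labels' protocols state. The authors deposited expected counts for TC-32 and A673, which the table names attribute to RSEM, and whole counts for TC-71, attributed to Subread. The submitters' processing notes name cutadapt 4.4, STAR 2.7.3, Subread 2.0.3, limma 3.38.3 and the build GRCh38. Which step made which table, and the strand setting, are not given in the sources used here. The line of the 12 TC-32 and TC-71 columns rests on the table name.

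Expected counts were rounded. Each line was fitted alone in edgeR 4.0.16 (R 4.3.3) with filterByExpr, TMM scaling and the robust quasi-likelihood F-test, with Benjamini-Hochberg adjustment over all genes tested. Fold changes use the default prior count of 0.125. An SE is the size of the fold change fitted without that prior, over the square root of the test's F. At low counts it can fall below the counting error. Depth, from 19685354 to 120993595 counts per library, sets the precision: a count of 0 allows up to 3 counts, or 0.0806 to 0.152 CPM in TC-71. Replicate pairs differed by more than sampling noise (lowest chi-square per degree of freedom 2.49). Exons and lengths came from GENCODE 44, where 57754 rows were found by identifier. On simulated data with 200 genes changed 2-fold, the fits recovered 98% (TC-32), 100% (TC-71) and 97.5% (A673) of them, and 11.3%, 6.1% and 6.7% of calls were false. For the interactions, 94% (TC-32 minus A673), 95.5% (TC-32 minus TC-71) and 97% (A673 minus TC-71) were recovered, and 8.74%, 3.54% and 7.62% of calls were false. The changed genes were drawn from well-counted genes only and were far fewer than the genes called in the data. These shares therefore do not cover members at low counts, such as LOXL4 with siNeg.

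The members, the gene lists and the tests were chosen with earlier results of these data known. Named genes are the members, FLI1, EWSR1, genes sharing exon bases with a member, the 2 largest called rises and falls per list and line, and the 3 genes with the highest Pearson r to each member. For r, a prior count of 2 and a mean log2 CPM of at least 1 in each line were used. ELN, COL4A1 and COL4A2 in TC-32 and A673 and the marker genes were named in addition, as substrates and checks. For FN1, BMP1, ADAMTS14, TLL1, TLL2, PCOLCE2 and SLC31A1, named by the rule in some lines, values of other lines are given too. The summed level of the blood cell markers is not reported here. The fits were repeated with DESeq2 1.42.0, with limma-voom (limma 3.58.1), with library size alone or RLE in place of TMM, without a filter, with a minimum mean of 10 counts, with unrounded counts, the replicate number as a block, each library left out, only the 12 libraries of the lines compared, the longest transcript as length, and Spearman correlation.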

Additional observations from a re-analysis of the deposited data

Results flagged for a closer look

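The response to siFLI1 was unequal between lines, by a test of the difference itself (edgeR interaction contrasts, adjusted over all genes) in 11 of the 15 comparisons of the family. For LOX the difference was -2.95 on the log2 scale for TC-32 minus A673 and 3.10 for A673 minus TC-71. LOXL1 gave 0.80 for TC-32 minus A673, -3.39 for TC-32 minus TC-71 and -4.19 for A673 minus TC-71. LOXL2 gave 0.58 for TC-32 minus A673 and -0.52 for A673 minus TC-71. LOXL3 gave -1.88, 0.98 and 2.86 for TC-32 minus A673, TC-32 minus TC-71 and A673 minus TC-71. LOXL4 gave 1.88 for TC-32 minus A673, from siNeg counts of 1 to 4 per TC-32 library and 9 to 16 per A673 library. Between 51.6% and 62.1% of all genes tested differed in these contrasts, so a difference between lines is common in these data.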

How the results depend on the processing

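All 205 alternative values of the family's fold changes in single lines kept their direction and their side of the threshold, as did 296 of 300 alternative values of the differences between lines. The other 4 were all of LOXL4, whose siNeg counts are low: with limma-voom, TC-32 minus TC-71 became 2.00 (adjusted p = 0.0135) and A673 minus TC-71 became 0.21. The latter, which did not pass the test in either direction, ranged from -0.90 to 0.34 with each library left out, and was 0.12 without A673 siNeg replicate 1 and 0.34 without TC-71 siNeg replicate 2. Counts of called genes stayed within 1.5 times in 573 of 574 alternatives, and the substrate genes lower in TC-71 went from 2 to 1 without siFLI1 replicate 1 of TC-71. DOK1 in A673, not called, turned to -0.073 with library size alone and to -0.044 without siFLI1 replicate 2. The cause of these changes was not tested. Same-numbered libraries did not deviate together (correlations from -0.0784 to 0.0422, and 1 of 3 numbers per line correlating best with its own), so no pairing by number was seen. These correlations cannot exclude that same-numbered libraries were prepared together. With the replicate block, LOXL3 had 0.17 (TC-32), -0.80 (TC-71) and 2.10 (A673), no family call changed, and 6621 genes were called higher in TC-32.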
